A study of Mus musculus with 4 samples.

Results

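Regulators of G protein signalling (RGS proteins) are the genes described here, in RNA of dendritic cells sorted from mouse spleen. A total of 8 family members were followed, namely Rgs1, Rgs2, Rgs3, Rgs10, Rgs12, Rgs14, Rgs18 and Rgs19, out of 17300 genes in the deposited table. They were chosen by symbol from a family already known to hold members that were higher and members that were lower in this comparison. For that reason the KO and WT values of the members are given as a description, and no p-value is given for a member. The libraries were 2 from KO samples, whose titles begin with EKO, and 2 from WT samples, and the series title concerns Siglec-E, an inhibitory receptor for sialic acid on myeloid cells. Strain, age, sex, treatment and sorting gate are not given in the labels, which leave unsaid if each sample was its own animal, so the p-values given for other genes measure only the spread between these samples. Numbers on the KO columns do not match those of the KO titles, so these libraries are named KO A and KO B. Values of a pair of libraries are given in the order A, B for KO and 1, 2 for WT. Column names begin with Allo, a prefix that the sources used here do not explain.

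When a G protein-coupled receptor is engaged, the alpha subunit of its G protein binds GTP and separates from the beta and gamma subunits, and both parts signal until the GTP is hydrolysed. RGS proteins bind the active alpha subunit and speed up that hydrolysis, so they shorten and weaken signals of the receptor. In leukocytes most chemokine and many lipid receptors use the inhibitory Gi class, which makes RGS proteins a brake on migration towards a chemokine. The members fall into 3 subfamilies, the R4 group (Rgs1, Rgs2, Rgs3 and Rgs18), the R12 group (Rgs10, Rgs12 and Rgs14) and the RZ group (Rgs19).

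Values are on the log2 scale of the deposited table, whose lowest value in every library was 8.04. Counts are obtained by undoing the variance-stabilizing transform from that lowest value, and they summed to between 30274060 and 30952251 in KO libraries and between 29002408 and 29377044 in WT libraries. Siglece (ENSMUSG00000030474), the gene of Siglec-E, was at 8.92 and 8.96 in the KO pair, against 10.38 and 10.14 in the WT pair, and fell by 1.32 (SE 0.107, limma adjusted p = 0.0138). The libraries differed in more than this gene. Summed counts of 4 Y-linked genes were 1019 and 9539 in the KO pair, against 9562 and 9994 in the WT pair, so KO A stood apart from the other libraries. Immediate early genes, which cells switch on within minutes of stimulation or of tissue dissociation, summed to 210485 and 239952 in the KO pair, against 46762 and 92284 in the WT pair. Dendritic cell markers, with 11 of 18 tested genes past the threshold and all of those lower in KO, summed to 488685 and 452365 in the KO pair, against 625307 and 649518 in the WT pair. No listed cell type marker that was in the table was at the lowest value in any library. Some listed markers, such as Trac of T cells and Vpreb3 of B cells, were not in the table. In bulk RNA, fewer cells of a type and less RNA per cell cannot be told apart.

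**Figure D1:**
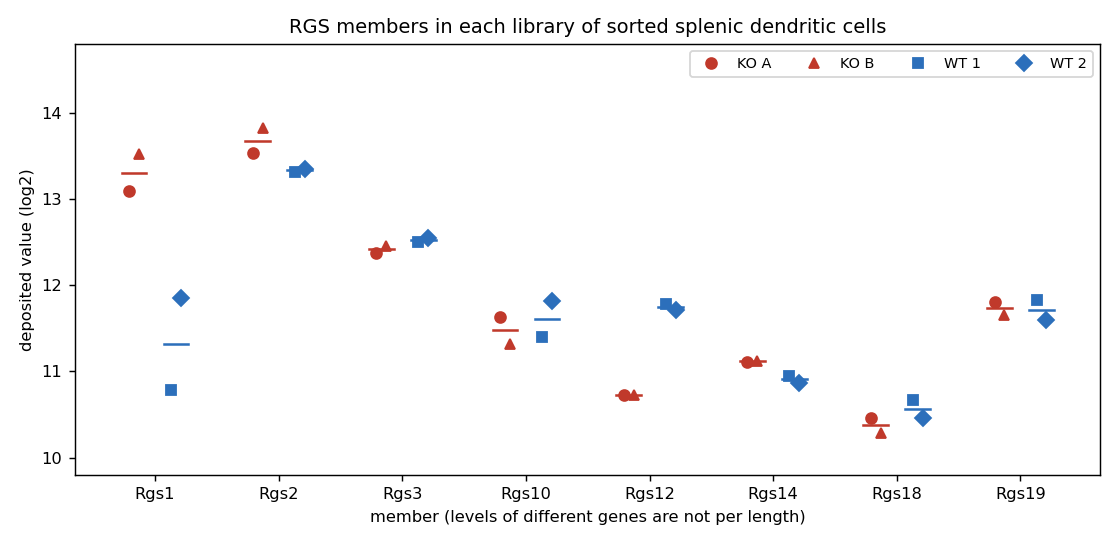
Deposited value (log2, vertical axis) of the 8 members in each library, with KO A and KO B in red left of WT 1 and WT 2 in blue, and a short bar at each group's mean (n = 2 per group). Rgs1 is higher in both KO libraries, at 13.09 and 13.52, and Rgs12 is lower in both, at 10.73 in each.

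Of the 8 members, Rgs1 had by far the largest excess in KO and Rgs12 the largest deficit, and the other 6 differed by less than 0.4 log2 units. KO and WT libraries did not overlap for 5 members, 3 of them higher in KO (Rgs1, Rgs2 and Rgs14) and 2 lower (Rgs3 and Rgs12). Among the 11864 genes tested, whose mean exceeded the lowest value by 1 log2 unit or more, 56.2% had groups that did not overlap, 28.1% with KO above and 28.2% with KO below. All 8 members were above that minimum. With limma and an adjusted p threshold of 0.05, 1 member was past the threshold upwards and 1 downwards, where 6.93% of all tested genes were past it, 4.69% upwards and 2.23% downwards. Nothing is read from these counts, since the members were chosen from this comparison. The members' median difference, KO minus WT, was -0.05, and the median over all tested genes was -0.00170.

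Rgs1 (ENSMUSG00000026358, chromosome 1) is an R4 member known for damping the response of B and T cells to chemokines such as the Cxcr4 ligand, and its mRNA is induced by activation. It stood at 13.09 and 13.52 in the KO pair, against 10.78 and 11.85 in the WT pair. Both KO libraries were above both WT libraries, with 1.24 log2 units between the nearest libraries of the groups. The group means were 13.31 ± 0.303 in KO and 11.32 ± 0.752 in WT (± SD, n = 2 libraries each), a difference of 1.99. In counts, Rgs1 averaged 9725 ± 2137 in KO and 2227 ± 1344 in WT (± SD, n = 2 libraries each), 4.37-fold higher. It ranked 15 among the tested genes, counted from the largest excess in KO. The size rested on which WT library was used, since the count ratio was 3.06 without WT 1 and 7.61 without WT 2, while it was 5.04 without KO A and 3.69 without KO B.

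The gap of 1.06 between the WT libraries was the widest within-group gap of any member, with WT 1 the lower. Immediate early genes had the same order of libraries in their summed counts, which were given above, and 24 of 29 tested genes of that list rose with 0 lower. Erythroid markers summed to 47239 and 69458 in the KO pair, against 5150 and 19851 in the WT pair, again with KO B highest and WT 1 lowest. Basophil and mast cell markers, in which 4 of 6 tested rose, summed to 5440 and 7699 in the KO pair, against 2388 and 1742 in the WT pair. Markers of NK cells, in which 10 of 12 rose, summed to 19311 and 23182 in the KO pair, against 9840 and 9750 in the WT pair. T cells also express Rgs1. Their markers summed to 11959 and 9541 in the KO pair, against 10381 and 11355 in the WT pair. Most of each sum came from Cd4 and Cd8a, whose KO to WT count ratios were 0.979 and 0.737, so the sums say little of the other genes. Among those, Cd28, Cd3g and Lat had ratios of 3.15, 3.42 and 2.47, while Cd3e and Cd5 had 0.926 and 0.626. Cd3g, Lat and Cd3e were below the minimum level of the tested genes. Of 8 tested T cell markers, 1 (Cd28) rose past the threshold with 0 lower. The median difference of the 8 was 0.18, with 5 above 0 and 3 below (Cd4, Cd8a and Cd5). B cell markers summed to 4926 and 7226 in the KO pair, against 9589 and 5670 in the WT pair, with 0 of 11 past the threshold. Of these sums, Cd22 alone gave 1569 and 2767 in the KO pair, against 4848 and 3019 in the WT pair. The list's median difference was 0.08, with 7 genes above 0 and 4 below. The part of these lists in the Rgs1 values was not tested.

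Rgs2 (ENSMUSG00000026360, chromosome 1) is an R4 member that prefers the Gq class of alpha subunits and is known as an early response gene of many cells. It was at 13.53 and 13.82 in the KO pair, against 13.32 and 13.35 in the WT pair. The KO libraries were both above the WT libraries, but only by 0.19 at the nearest, which is less than the 0.29 between KO A and KO B. Its mean was 13.68 ± 0.202 in KO and 13.33 ± 0.0170 in WT (± SD, n = 2 libraries each), a difference of 0.34 and a count ratio of 1.29. Without KO B the difference was 0.20. Rgs1 and Rgs2 therefore differed in how far KO stood from WT, and the WT gap that was wide for Rgs1 was 0.02 for Rgs2.

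Rgs3 (ENSMUSG00000059810, chromosome 4), an R4 member with long forms that carry extra domains before the RGS domain, was at 12.37 and 12.46 in the KO pair, against 12.50 and 12.55 in the WT pair. The KO libraries were lower by 0.05 at the nearest, and the difference of the means was -0.12. Rgs18 (ENSMUSG00000026357, chromosome 1), the R4 member best known from platelets and their precursors, was at 10.46 and 10.29 in the KO pair, against 10.67 and 10.46 in the WT pair. The groups met at 10.46, so they were not separated, with a difference of -0.19. Platelet and megakaryocyte markers, as a list, summed to 3657 and 3622 in the KO pair, against 3060 and 3294 in the WT pair, with 0 of 4 tested genes past the threshold and most of the list under the minimum level. The sums were slightly higher in KO libraries, and most of each came from Itgb3 and Vwf. The 4 tested genes had a median difference of 0.02, with 2 above 0 and 2 below. The part of this list in the Rgs18 values was not tested.

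In the R12 group the members did not share a direction. Rgs12 (ENSMUSG00000029101, chromosome 5) is a large scaffold protein whose longest form joins the RGS domain to PDZ, phosphotyrosine-binding, Ras-binding and GoLoco domains, the last of which holds inactive Gi alpha subunits. It was at 10.73 in both KO libraries, against 11.78 and 11.71 in the WT pair. The groups were 0.98 apart at the nearest, and the libraries within each group were within 0.07 of each other. The mean was 10.73 ± 0.000965 in KO and 11.75 ± 0.0494 in WT (± SD, n = 2 libraries each), a difference of -1.02. Counts averaged 1215 ± 1.11 in KO and 2938 ± 117 in WT (± SD, n = 2 libraries each), 2.42-fold lower in KO. It ranked 10 among the tested genes, counted from the largest deficit in KO. Leaving out any library in turn gave differences between -1.05 and -0.98.

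The 18 dendritic cell markers, with the sums given above, had a median difference of -0.49, and their part in the Rgs12 values was not tested. In WT libraries the level of Rgs12 was almost the same, and WT 1, which was far from WT 2 in Rgs1, was not far from it here. An antisense gene model, Gm43791, overlaps Rgs12 exons in the annotation used for names, and was not analysed here. The library kit keeps the strand, but whether the counting used it is not stated, so the Rgs12 values are uncertain to the extent that such reads were counted.

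RefSeq promoter windows, from 250 bases before to 50 bases after a start site in GRCm38.p6, were used for 5 members (Rgs2, Rgs3, Rgs10, Rgs12 and Rgs19) with 9 start sites in all, and those of Rgs1, Rgs14 and Rgs18 were not analysed here. The windows of Rgs2 and Rgs12, which lay on opposite sides in KO, are printed. The letters TGANTCA (AP-1), ACGTCA (core of the cAMP response element, CRE) and GTGGGCG (core of the EGR site), the CArG box and the NF-kB motif were searched on both strands, and matches are in capitals. Of the 9 windows, 2 held a match, those of Rgs2 and of start 2 of Rgs12. The windows of Rgs3, Rgs10 and Rgs19, which are not printed, held none.
Rgs2, chr1:144004100-144004399, minus strand: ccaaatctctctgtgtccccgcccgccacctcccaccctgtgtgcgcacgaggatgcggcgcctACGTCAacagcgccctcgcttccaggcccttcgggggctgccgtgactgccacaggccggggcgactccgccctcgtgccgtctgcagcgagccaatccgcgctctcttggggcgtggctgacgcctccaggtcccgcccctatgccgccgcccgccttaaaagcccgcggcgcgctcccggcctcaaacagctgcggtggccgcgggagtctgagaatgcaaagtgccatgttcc
Rgs12, start 1, chr5:34949198-34949497, plus strand: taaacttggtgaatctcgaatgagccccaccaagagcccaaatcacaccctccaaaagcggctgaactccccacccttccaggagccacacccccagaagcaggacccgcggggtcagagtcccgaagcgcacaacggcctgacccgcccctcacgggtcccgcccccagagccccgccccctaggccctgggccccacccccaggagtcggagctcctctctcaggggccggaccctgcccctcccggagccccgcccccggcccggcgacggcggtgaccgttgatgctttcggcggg
Rgs12, start 2, chr5:34998828-34999127, plus strand: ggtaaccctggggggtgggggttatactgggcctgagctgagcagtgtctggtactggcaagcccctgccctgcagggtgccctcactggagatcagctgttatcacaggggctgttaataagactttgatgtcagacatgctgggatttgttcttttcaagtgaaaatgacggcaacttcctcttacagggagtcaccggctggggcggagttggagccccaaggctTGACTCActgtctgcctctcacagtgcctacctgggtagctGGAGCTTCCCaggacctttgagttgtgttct

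The Rgs2 window held the CRE core, starting 186 bases before the start site, letters that 7.51% of all 32851 windows hold. The window at start 2 of Rgs12 held AP-1 letters 22 bases before the start and the NF-kB motif 19 bases after it, which 7.81% and 8.46% of all windows hold. The window at start 1 of Rgs12 held none of the 5, of which the EGR core is in 7.97% of all windows and the CArG box in 1.63%. The matches do not overlap each other. A match describes these letters only, and the gene-level values do not separate the starts of Rgs12.

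Rgs14 (ENSMUSG00000052087, chromosome 13), which has the Ras-binding and GoLoco domains of Rgs12 but no PDZ domain, was at 11.11 and 11.12 in the KO pair, against 10.95 and 10.87 in the WT pair. All KO values were above all WT values by at least 0.16, and the difference was 0.20 with a count ratio of 1.20. Rgs10 (ENSMUSG00000030844, chromosome 7), a small protein that is little more than the RGS domain and restrains inflammatory activation in microglia, was at 11.63 and 11.32 in the KO pair, against 11.40 and 11.82 in the WT pair. The groups overlapped, and the difference of -0.14 was smaller than the gap of 0.31 within KO and 0.42 within WT. Its difference was 0.07 without WT 2 and 0.01 without KO B, so the sign depended on single libraries.

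Rgs19 (ENSMUSG00000002458, chromosome 2), also called GAIP, is the RZ member and acts on Gi alpha subunits near membranes of the secretory pathway. Its values were 11.81 and 11.65 in the KO pair, against 11.83 and 11.60 in the WT pair. Each WT library lay outside the KO pair on its own side, and the difference was 0.01, with -0.10 to 0.12 when each library was left out in turn.

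**Figure D2:**
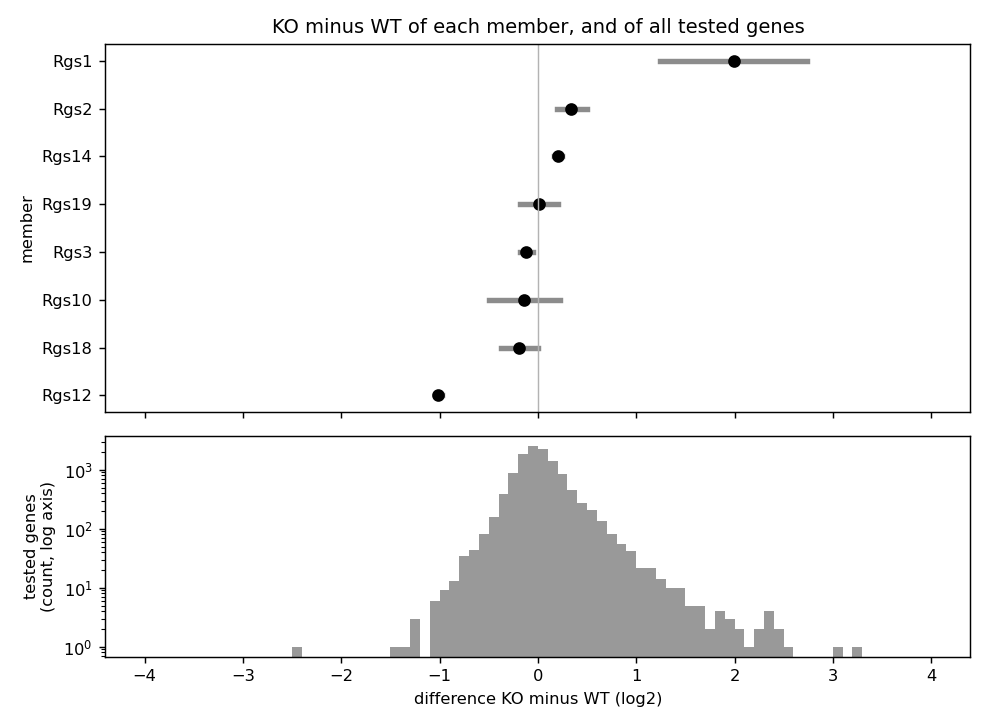
The upper panel shows the difference KO minus WT (log2) of each member as a point, with a bar from the lowest to the highest of the 4 differences between single KO and single WT libraries. The lower panel shows the number of tested genes (log axis) at each difference, and Rgs1 at 1.99 and Rgs12 at -1.02 lie in its tails, while the other 6 members lie between -0.19 and 0.34.

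Dividing counts by length allows members to be set against each other. Per kilobase of the longest protein-coding transcript in GENCODE M21, Rgs2 had the highest count of the members, 4181 ± 607 per kilobase in KO, against 3248 ± 40.2 in WT (mean ± SD, n = 2 libraries each). Rgs1 had 2532 ± 556 in KO and 580 ± 350 in WT, which placed it the third in KO and the sixth in WT. In KO the neighbours Rgs10 (2678 ± 482) and Rgs1 did not differ beyond their spread, and Rgs19 followed with 1911 ± 175. Rgs10 with 3026 ± 727 in WT and Rgs2 also did not differ beyond their spread there. Rgs12 had the lowest count per kilobase in KO, at 222 ± 0.203, and 537 ± 21.4 in WT. In WT, Rgs18 (512 ± 73.4), Rgs12, Rgs1 and Rgs14 (610 ± 29.3) lay close together. With the length of all annotated exons in place of the longest transcript, Rgs2 was still the highest in both groups and Rgs12 the lowest in KO, but Rgs1 moved to the last place in WT. Which transcripts the authors counted is not stated.

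Rgs2, Rgs1 and Rgs18 lie in a cluster of RGS genes on chromosome 1, by the order of RefSeq genes in GRCm38.p6, which is Rgs2, Rgs13, Rgs1, Rgs21 and Rgs18. Rgs13 and Rgs21 were not analysed here. Along this order Rgs2 differed by 0.34, Rgs1 by 1.99 and Rgs18 by -0.19, so neighbours did not differ by a common amount. On the outer side of Rgs2, Uchl5, a proteasome-bound deubiquitinase, differed by -0.13 (limma adjusted p = 0.476) and Ro60, an RNA-binding protein, by 0.02 (limma adjusted p = 0.938). Beyond Rgs18, Pla2g4a, the cytosolic phospholipase that releases arachidonic acid, differed by -0.28 (limma adjusted p = 0.215).

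The genes whose values across the 4 libraries lay nearest to a member, each gene centred on its own mean, were different for Rgs1 and Rgs12. For Rgs1 they were Sptb, which encodes a beta spectrin (distance 0.144 log2 units), Zfp36, which destabilizes cytokine mRNAs (0.163), and Ppp1r15a, a stress-induced phosphatase subunit (0.171). For Rgs12 they were Dpp4, the peptidase CD26 (0.106), Hap1, a trafficking protein (0.120), and Ciita, the coactivator that drives MHC class II genes (0.139). Sptb was in the erythroid list, Zfp36 and Ppp1r15a in the immediate early list, and Dpp4 and Ciita in the dendritic cell list. All distances rest on only 4 libraries that were scaled together. The distance between Rgs1 and Rgs12 themselves was 3.13, the largest between any pair of members, and that between Rgs18 and Rgs19, 0.203, was the smallest. Distances are built from the same KO and WT values, so the largest only restates the opposite differences of Rgs1 and Rgs12 given above.

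**Figure D3:**
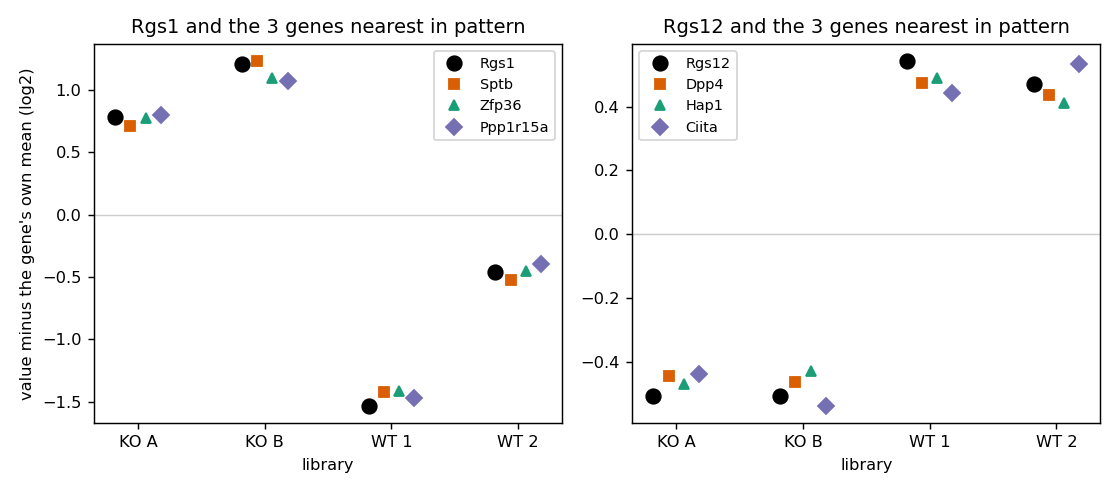
Value minus the gene's own mean over the 4 libraries (log2, vertical axis) for Rgs1 (left panel) and Rgs12 (right panel) in black, with the 3 genes nearest to each in colour. Rgs1 and its neighbours have WT 1 below WT 2, whereas Rgs12 has its KO libraries together and its WT libraries together.

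The remaining genes of the nearest-pattern rule belong to members with small differences. Being picked for nearness, they have similarly small differences by the rule itself, so that none was past the threshold says nothing more. They were Nbeal2, Apol7e and Crat for Rgs2, Spata2l, Fhad1 and Vmn1r210 for Rgs3, and Tanc2, P2ry14 and Ttll4 for Rgs10. For Rgs14 they were Mdga2, Ppm1d and Rprd1b, for Rgs18 Mtpn, Dedd and Plekha7, and for Rgs19 Col17a1, Cbx1 and Ctps2.

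Other RGS genes were weakly measured. Of 13 further family members listed, 7 were in the table and 2 had a mean above the minimum. Neither was past the threshold, where 6.93% of all tested genes were. Rgs9, a member known from photoreceptors and striatum, was at 9.12 and 9.34 in the KO pair, against 9.13 and 9.25 in the WT pair (difference 0.04, limma adjusted p = 0.871). Rgs11 was at 9.12 and 9.04 in the KO pair, against 9.20 and 9.41 in the WT pair (difference -0.23, limma adjusted p = 0.222). Below the minimum, Rgs16, which is induced by activation in lymphocytes, was at 8.62 and 8.73 in the KO pair, against 8.36 and 8.35 in the WT pair. Rgs5, Rgs7, Rgs17 and Rgs20, also below it, differed by -0.24, -0.05, -0.18 and 0.03.

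The G proteins on which RGS proteins act showed no gene past the threshold. Of 9 tested alpha subunits 0 rose and 0 fell with limma at an adjusted p under 0.05, with a median difference of 0.11. Over all tested genes 6.93% were past the threshold, a share at which lists this short can hold 0 calls. Nothing is therefore read from the counts of 0 in this paragraph. Gnai2, the main Gi alpha subunit of leukocytes, was at 14.56 and 14.51 in the KO pair, against 14.47 and 14.37 in the WT pair (difference 0.11, limma adjusted p = 0.456). Gnaq, the Gq subunit that Rgs2 prefers, differed by -0.04 (limma adjusted p = 0.810), and Gna13, of the G12 and G13 class, by 0.29 (limma adjusted p = 0.254). Gnai2, Gnaq and Gna13 were chosen for their roles after their values were seen. Of 9 tested beta and gamma subunits 0 were past the threshold, the farthest from 0 being Gng10, a gamma subunit named after its value was seen (difference -0.41, limma adjusted p = 0.0797), and of 10 other regulators of G proteins, which include arrestins and GoLoco proteins, also 0. Gpsm2, a GoLoco protein of the mitotic spindle, was the nearest to it among these regulators, at 10.29 and 10.40 in the KO pair, against 9.26 and 9.87 in the WT pair (limma adjusted p = 0.0618, named after its value was seen).

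Proteins that carry an RGS homology domain in another context gave 1 call among 14 tested, or 7.14% where 6.93% of all tested genes were past the threshold. Arhgef12, a protein that binds active G12 and G13 alpha subunits, was at 10.72 and 11.32 in the KO pair, against 10.14 and 10.15 in the WT pair. It rose by 0.88 (SE 0.188, limma adjusted p = 0.0463), with the larger excess in KO B, and missed the threshold with quantile normalization. The receptor kinases Grk2 and Grk5, which tag active receptors for arrestin, differed by 0.04 (limma adjusted p = 0.808) and 0.40 (limma adjusted p = 0.0902). Grk3, of the same kinase family, was at 13.76 and 13.93 in the KO pair, against 14.13 and 14.15 in the WT pair (difference -0.29, limma adjusted p = 0.106). With quantile normalization Grk3 passed the threshold downwards (difference -0.39, limma adjusted p = 0.0497), so the single call of the list was then another gene with the opposite sign. The 3 kinases were named after their values were seen. The list's median was 0.03.

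Downstream, 2 of 21 tested genes of adenylyl cyclase and cAMP signalling rose and 0 fell, which is 9.52% of the list where 6.93% of all tested genes were past the threshold, and the median was 0.20. Crem, a cAMP-responsive transcription factor with inducible repressor forms, was at 9.68 in both KO libraries, against 9.07 and 9.25 in the WT pair. It rose by 0.52 (SE 0.0954, limma adjusted p = 0.0328). Pde7b, a phosphodiesterase that breaks down cAMP, rose by 0.41 (SE 0.0850, limma adjusted p = 0.0438), but missed the threshold with quantile normalization, with log2 of the count plus 1 and in each fit that left out 1 library. Crem missed it without WT 1, without KO A and without KO B. Crem and Pde7b lie below the stricter minimum of 2 log2 units, where this list had 0 calls. None of 17 tested genes for phospholipase C beta and calcium release was past the threshold in limma, where 6.93% of all tested genes were. The median of that list was 0.04.

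Among receptors that act through these G proteins, genes passed the threshold in both directions. Of 52 tested leukocyte G protein-coupled receptors 8 rose, 5 fell and 39 did not pass, with a median of 0.09. That is 25.0% of the list, where 6.93% of all tested genes were past the threshold, and the list was not tested against other genes. Hcar2, a Gi-coupled receptor for hydroxybutyrate and niacin, had 569 and 607 counts in the KO pair, against 64.8 and 97.3 in the WT pair, and rose by 1.21 (SE 0.0939, limma adjusted p = 0.0138). Cxcr4, the Gi-coupled receptor whose signal Rgs1 is known to limit in lymphocytes, rose by 0.72 (SE 0.0837, limma adjusted p = 0.0147). For Cxcr4 the libraries were at 11.61 and 11.63 in the KO pair, against 10.95 and 10.86 in the WT pair, so the WT gap of Rgs1 was not seen there.

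Among the receptors, Lpar1, a receptor for lysophosphatidic acid, fell by 0.94 (SE 0.108, limma adjusted p = 0.0147) and Ccr6, the receptor for Ccl20, by 0.75 (SE 0.0946, limma adjusted p = 0.0180). Hrh1, the Gq-coupled histamine receptor, fell by 0.66 (SE 0.0866, limma adjusted p = 0.0191). Neutrophil markers, a list that shares Cxcr2 with the receptors, summed to 260892 and 245305 in the KO pair, against 224443 and 87013 in the WT pair, and 3 of 14 tested rose with 0 lower. The receptor list also shares Ccr2 with the macrophage and monocyte markers, and Xcr1 with the dendritic cell markers. Macrophage and monocyte markers summed to 84093 and 88816 in the KO pair, against 52672 and 54071 in the WT pair, and 9 of 16 tested rose with 0 lower. Their part in the receptor values was not tested. Without KO A 0 genes of the whole table were past the threshold, and without KO B 3 were, so none of the pathway calls given here held in those fits.

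**Figure D4:**
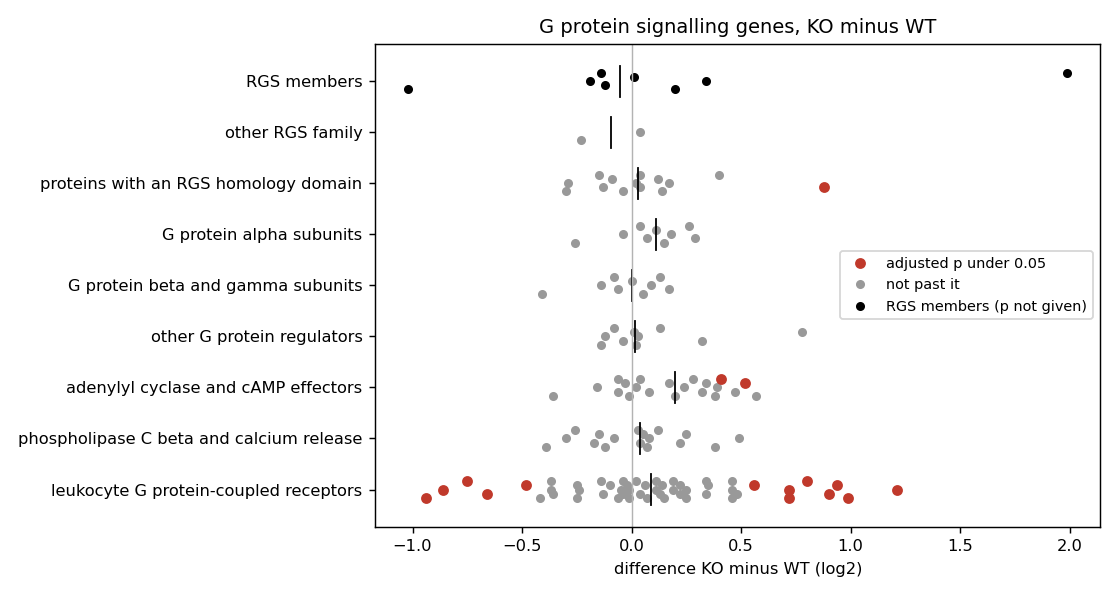
Difference KO minus WT (log2, horizontal axis) of every tested gene in the RGS members and in each pathway list, with red points past an adjusted p of 0.05 in limma, grey points not past it, black points for the members, whose p-values are not given, and a vertical bar at each list's median. Red points are 13 receptors, 2 cAMP genes and Arhgef12, and no alpha, beta or gamma subunit is red.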

How the data were processed

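Total RNA of sorted splenic dendritic cells was made into libraries with a stranded low-input kit, per the labels' protocols. Salmon 1.10.1, DESeq2 and the genome build GRCm39 are named, without their roles, per the submitters' processing notes. The authors deposited log2 values, scaled between libraries, that are compressed near a shared lowest value as a variance-stabilizing transform gives. Differences on this log2 scale understate changes of weakly expressed genes. Counts were obtained by inverting that transform from the lowest value alone, and library depth in reads is unknown.

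Symbols came from GENCODE M21 (17289 of 17300 identifiers matched). The 2 KO libraries were set against the 2 WT libraries in limma 3.58.1 under R 4.3.3, two-sided, with an intensity trend and Benjamini-Hochberg adjusted p-values over 11864 genes. The fit was tested on simulated data. Coordinates are given only for RefSeq promoter windows, in their own older build.

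The members and lists were chosen with earlier results of these data known. Named genes were the members, other RGS genes, up to 3 called genes per direction and list by smallest p, the 3 genes nearest each member in pattern, the neighbours of the chromosome 1 cluster, and those said to be named after their values were seen. A receptor that this rule would name is not reported here. Alternatives were the minimum level, quantile normalization, log2 of the count plus 1, no trend, and leaving out each library.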

Additional observations from a re-analysis of the deposited data

How the results depend on the processing

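No paired analysis was possible because the KO columns carry other numbers than the KO titles, so no replicate block could be fitted. Every member whose groups did not overlap kept its direction with quantile normalization, the only alternative that could have changed it. The other alternatives could not turn such a member around, so their outcome says nothing about its direction. Rgs1 ran from 1.46 to 2.52 when each library was left out, and was 1.95 with quantile normalization and 2.25 with log2 of the count plus 1. Rgs12 was -1.06 and -1.27 in those 2 settings. Over all genes, 822 were past the threshold, and between 0 and 820 when each library was left out, with 2508 at an unadjusted p under 0.05 without KO A. Quantile normalization gave 366 higher and 282 lower calls in place of 557 higher and 265 lower, a split nearer to even. Left-out libraries gave between 0 and 17 calls for receptors, 0 and 2 for cAMP genes, 0 and 2 for phospholipase C and calcium genes, 0 and 1 for RGS homology proteins, 0 and 1 for alpha subunits, and 0 and 1 for other regulators. The cAMP list had 0 calls with the minimum of 2 log2 units, and 1 each with quantile normalization and with log2 of the count plus 1. With no minimum, the other regulators had 1 call. The causes were not tested. Rgs5, Rgs7, Rgs16, Rgs17 and Rgs20 lay under the minimum level and were not tested in the fit reported.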
